A study of Homo sapiens with 17 samples.

Results

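The RNA that HEK-293T cells made during 1 h of emetine was described from s4U-labeled reads, meaning reads with at least 2 T-to-C conversions. All 10763 genes with 100 or more reads in each of 6 libraries were taken, of 19222 genes listed in the 1 h table. Emetine, a plant alkaloid, halts ribosomes by blocking their translocation along the mRNA, and HEK-293T cells are an established line derived from embryonic human kidney. Cells received 500 µM s4U (4-thiouridine) for 1 h, either alone (untreated, 3 libraries) or together with 1.8 µM emetine (3 libraries). One more library of each kind came from cells that received no s4U, and it gave the background of the labeled count. After TimeLapse chemistry, an incorporated s4U is read as C in place of T, so that converted reads mark transcripts made while the label was present. The comparison addresses which transcripts changed in synthesis, across gene functions, when elongation was inhibited.

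Transcription by RNA polymerase II responds within minutes to signaling kinases. Immediate early genes such as *JUN* are transcribed through factors that already exist in the cell, and therefore need no translation to be switched on. Their transcripts and those of many other regulators are short-lived, while transcripts of housekeeping genes last for many hours, so that a short label marks most copies of the former and few copies of the latter. A labeled read count at 1 h is synthesis minus whatever decayed of the new RNA within that hour, and these parts cannot be told apart with 1 labeling time. Labeled counts were scaled to the typical labeled gene (TMM, values given as labeled CPM, the CPM of labeled reads alone), so all changes are relative to that gene. A new read reaches 2 conversions more easily where it covers more T positions, so levels were compared between libraries and not between genes. T positions per read also differed between libraries, with means of 37.7, 43.8 and 35.3 untreated and 33.2, 40.2 and 33.3 with emetine. The part of this difference in the labeled counts was not tested. In these bulk samples, fewer cells and less RNA per cell cannot be told apart.

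Between 22246279 and 40018063 reads were given to a gene in the 6 libraries with s4U, of which 1799508 to 3047000 were labeled. The labeled share was 6.32%, 8.31% and 8.66% in the untreated libraries and 6.86%, 7.61% and 7.42% in the emetine libraries, which overlapped (exact permutation test, two-sided, p = 0.6, where 0.1 is the smallest p possible with 3 against 3). Without s4U it was 0.0422% (untreated) and 0.0448% (emetine). Labeled reads per spike-in read ranged from 7.68 to 14.2 untreated and from 9.36 to 18.5 with emetine, so a change in synthesis common to all genes was not detectable (exact permutation test, p = 0.3). Emetine replicate 3 stood apart: its deviation from its group mean had an SD of 0.29 log2 units over genes, against 0.213 to 0.238 in the others. Deviations of emetine replicates 1, 2 and 3 correlated with transcript length (Spearman −0.263, −0.425 and 0.489 across genes), values that are tied together by the shared group mean. The line's markers *VIM*, *NEFL* and *NEFM* had at least 12234, 2382 and 3309 reads, PAX2 and LHX1 at least 26 and 53, whereas PTPRC (leukocytes) was not listed and ALB, HBG1, HBG2 and PECAM1 had at most 10, 1, 2 and 2 reads. *COL1A1*, a collagen gene of fibroblasts, had 595 to 786 reads, and its part in the results was not tested.

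With edgeR's quasi-likelihood test and Benjamini-Hochberg adjustment, labeled reads were raised for 221 genes (2.05% of the 10763) and lowered for 245 (2.28%) at an adjusted p-value under 0.05, together 4.33%. The median log2 change was 0.72 among raised genes (range 0.44 to 3.30) and −0.61 among lowered genes (range −1.50 to −0.43). With an adjusted p under 0.01, 28 genes (0.26%) rose more than 2-fold and 8 genes (0.0743%) fell by as much, whereas scaled to all gene reads these counts were 17 and 23. The largest rises belonged to immediate early genes, MAP kinase phosphatases, alpha-arrestins, histones and developmental transcription factors. The falls with the 12 smallest p-values belonged mostly to genes of mitosis, with *DNAJB1* the only heat shock gene among them. *PSME1*, of the proteasome list, had a called fall of −1.43 and belonged to neither group. Its call was lost when 1 library was left out. *HMGA1* (−0.85) and *HDGF* (−0.78), among the 12 smallest p-values of lowered genes, were in no list. Neither was *C1orf233* (−1.24), among the 8 largest called falls. All emetine libraries lay above all untreated ones for 219 of the 221 raised genes and below them for the 245 lowered ones, beside 11.7% and 13.1% of all genes tested. The called genes were picked by a test on these same values, so their separation is a description and adds no support. Of the raised genes, 37 passed the adjusted threshold in each of the 6 fits that left out 1 library, as did 25 of the lowered genes. The largest loss came without untreated replicate 2, which left 41 raised and 38 lowered genes. Scaled to all gene reads in place of labeled reads, 27 genes were raised and 164 lowered, so that 14.1% of calls were rises, beside 47.4% with the main scaling, and the median of all genes was −0.20. Scaled to spike-in reads, that median was 0.42, 11 genes were raised and 0 lowered (edgeR, 587 and 3 at an unadjusted p under 0.05), so every fall reported is a fall relative to the typical labeled gene. The labels do not say whether libraries came from separate cultures, so p-values measure the spread between these libraries.

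**Figure D1:**
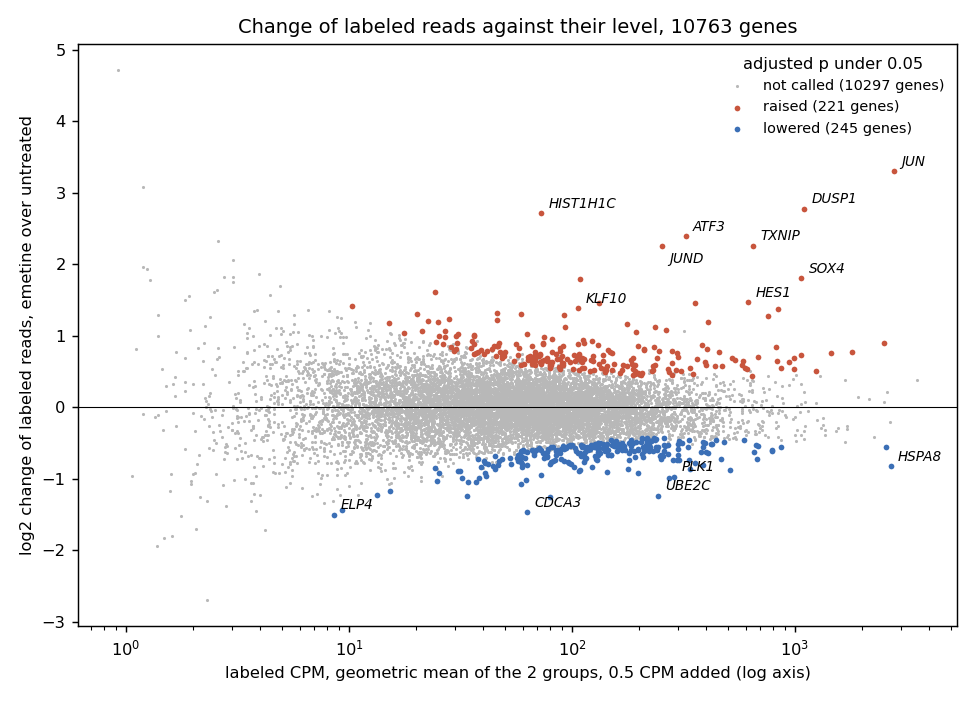
Log2 change of labeled reads (emetine over untreated, 3 libraries each) against their level in labeled CPM (log axis), 1 point per gene, with the 221 raised genes in red and the 245 lowered genes in blue. The largest called changes lie above 0, led by JUN at 3.30, and genes with few labeled reads scatter widely without being called.

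The AP-1 subunits held the gene with the largest change. *JUN*, a subunit of the AP-1 transcription factor (chromosome 1, 58776845 to 58784048, minus strand, GENCODE 44 on GRCh38), had 1007, 851 and 805 labeled CPM in the untreated libraries and 8631, 6973 and 10691 in the emetine libraries. The groups were far apart, with a 9.88-fold difference (log2 change 3.30, standard error 0.179, adjusted p = 2.15e-11). *ATF3*, a stress-induced bZIP factor that pairs with *JUN* proteins, rose from 163, 111 and 152 to 737, 677 and 802 labeled CPM, again without overlap (log2 change 2.39, standard error 0.150, adjusted p = 1.59e-10). *JUND*, a further *JUN* family member, rose from 137, 98.5 and 114 to 701, 433 and 521 labeled CPM (log2 change 2.25, standard error 0.167, adjusted p = 3.25e-09). Its reads without a conversion differed by 0.08 on the log2 scale (adjusted p = 0.795), which did not pass the test, whereas those of *JUN* and *ATF3* also rose (2.88 and 1.47). The estimated fraction of new *JUND* RNA went from 26.9% to 63.8% on average. The other 4 tested subunits did not pass the test, with *JUNB* at 0.23, *MAFG* at −0.10, *MAFK* at −0.41 and *BATF3* at −0.42, and FOS, FOSB, FOSL1, FOSL2 and MAFF had under 100 reads in some library. The list thus had 3 of 7 tested members raised (beside 2.05% of all genes) and 0 lowered (median 0.23, all genes 0.0025). Each of the 3 held in every fit that left out 1 library, and 3 were raised from the fraction new, scaled to all reads and scaled to spike-in reads.

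**Figure D2:**
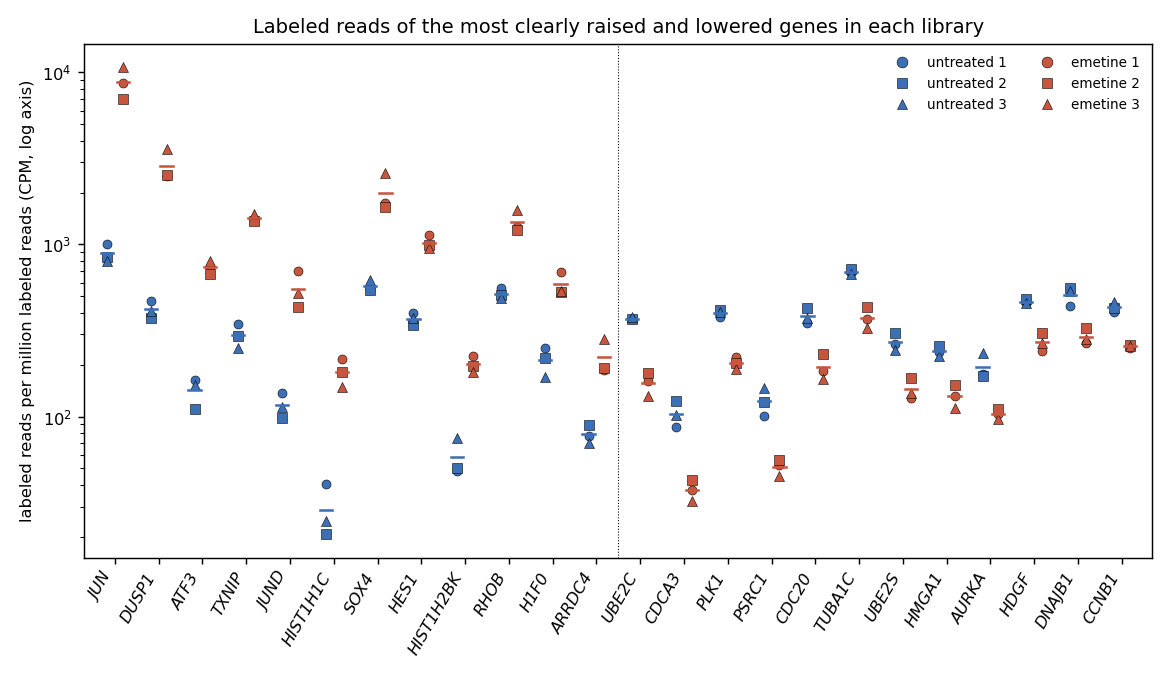
Labeled CPM (log axis) in each library for the 12 genes with the smallest p-values among raised genes (left of the dotted line) and among lowered genes (right), with untreated libraries in blue, emetine libraries in red, marker shapes for replicates and short lines for group means. In each of the 24 genes, which were picked by a test on these values, the 3 emetine points lie on one side of the 3 untreated points.

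Of the feedback inhibitors of MAP kinases, 2 of 12 tested rose, beside 2.05% of all genes. *DUSP1*, a phosphatase that inactivates JNK and p38 kinases, had 469.8, 376 and 412 labeled CPM untreated and 2494, 2538 and 3575 with emetine (log2 change 2.78, standard error 0.164, adjusted p = 6.98e-11). Almost all of its RNA was new in both groups (96.2% and 98.0% on average). *DUSP8*, which acts on the same kinases, went from 45.6, 29.4 and 37.2 to 85.0, 83.9 and 107 labeled CPM (log2 change 1.31, standard error 0.191, adjusted p = 0.000204). The remaining 10 members did not pass, among them *DUSP16* (0.63), *DUSP7* (−0.42), *DUSP14* (−0.48) and *SPRY2* (0.26), and the median of the list was 0.06. The raised members numbered 3 without emetine replicate 1 or 2, and 2 without any other library. They numbered 2 from the fraction new, 2 scaled to all reads and 1 scaled to spike-in reads. The kinases that carry the ribotoxic stress signal from stalled ribosomes had no called member among 13 tested (2 at an unadjusted p under 0.05, 0 by DESeq2 and by limma-voom), with *MAP2K3* at −0.36 and *MAPK14* at 0.09.

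Among other immediate early genes, 7 of 19 tested members were raised, beside 2.05% of all genes, and none were lowered (median 0.23). Of reads times the fraction new, 4 members were raised, with 3 scaled to all reads and 0 scaled to spike-in reads. *KLF10* and *KLF6*, zinc finger factors of the KLF family, had log2 changes of 1.39 and 1.17. *KLF6* went from 140.1, 112 and 98.6 to 236, 210.0 and 344 labeled CPM, with emetine replicate 3 the highest (adjusted p = 0.000172). *CYR61*, a secreted matricellular protein and YAP target, rose from 170.3, 123 and 110.0 to 291, 238 and 309 labeled CPM (log2 change 1.06, standard error 0.153, adjusted p = 0.000201). *GADD45B* and *GADD45A*, which bind stress kinases and cell cycle regulators, changed by 0.94 and 0.78, *BTG1*, an antiproliferative adaptor of deadenylases, by 0.68, and *IER2* by 0.81, all with adjusted p under 0.05. *PPP1R15A* (0.23), *TOB2* (−0.35), *IER5* (−0.10) and *ZFP36L2* (−0.10) did not pass the test, although their unlabeled reads changed by 1.19, 0.90, 1.09 and 0.91. The raised members numbered 3 without untreated replicate 2 and 6 or 7 without any other library.

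The alpha-arrestins are adaptors that route membrane proteins to ubiquitin ligases, and *TXNIP*, the best known of them, restrains glucose uptake. *TXNIP* had 345, 293 and 251 labeled CPM untreated and 1384, 1367 and 1508 with emetine, close together within each group (log2 change 2.26, standard error 0.144, adjusted p = 1.59e-10). *ARRDC4*, a close relative, rose from 77.4, 89.2 and 70.2 to 187, 191 and 284 labeled CPM (log2 change 1.47, standard error 0.164, adjusted p = 4.12e-06). *ARRDC3* rose from 59.2, 60.5 and 55.2 to 115, 125 and 195 (log2 change 1.30, standard error 0.181, adjusted p = 0.000126). *ARRDC1* and *ARRDC2* did not pass (0.29 and 0.01). *MLXIP*, which encodes the glucose-sensing factor MondoA that acts on *TXNIP* and *ARRDC4*, differed by 0.02, and *MLX*, its dimerization partner, fell by 0.52 on the log2 scale (adjusted p = 0.0309), a call that did not hold when 1 library was left out (adjusted p up to 0.176). The list thus had 3 of 7 tested members raised and 1 lowered, beside 2.05% and 2.28% of all genes. Raised members numbered 3 with the fraction new, 3 scaled to all reads and 1 scaled to spike-in reads, and lowered members 0 in each.

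The promoters of the 4 coding genes with the smallest p-values among raised genes are shown because of that rank. What drove the rise of these genes was not tested. Each is 250 bases before to 50 bases after a transcription start in RefSeq (GRCh38.p14), printed 5′ to 3′ on the gene's strand, with capitals marking motif matches. *JUN* is chr1:58783998-58784297, minus strand. *DUSP1* is chr5:172771146-172771445, minus strand. *ATF3*, at its upstream start, is chr1:212565157-212565456, plus strand. *TXNIP*, at the outer of its 2 listed starts, is chr1:145996530-145996829, minus strand.
JUN: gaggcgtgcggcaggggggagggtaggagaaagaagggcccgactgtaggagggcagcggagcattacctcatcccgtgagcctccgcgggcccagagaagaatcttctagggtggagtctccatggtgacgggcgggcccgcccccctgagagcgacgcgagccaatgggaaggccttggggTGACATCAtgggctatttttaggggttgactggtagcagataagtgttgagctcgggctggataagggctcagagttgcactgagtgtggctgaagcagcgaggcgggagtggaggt
DUSP1: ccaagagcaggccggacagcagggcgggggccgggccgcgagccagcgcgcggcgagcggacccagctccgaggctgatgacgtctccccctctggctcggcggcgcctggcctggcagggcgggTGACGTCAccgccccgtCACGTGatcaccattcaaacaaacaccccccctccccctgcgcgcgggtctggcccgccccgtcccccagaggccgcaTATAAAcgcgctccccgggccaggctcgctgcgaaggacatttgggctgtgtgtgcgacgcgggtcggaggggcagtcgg
ATF3: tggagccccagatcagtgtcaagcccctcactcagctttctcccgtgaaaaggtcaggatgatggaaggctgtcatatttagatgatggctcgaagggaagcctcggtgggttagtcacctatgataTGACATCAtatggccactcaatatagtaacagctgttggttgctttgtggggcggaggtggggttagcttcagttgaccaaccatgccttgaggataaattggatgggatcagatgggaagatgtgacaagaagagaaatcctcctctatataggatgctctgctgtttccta
TXNIP: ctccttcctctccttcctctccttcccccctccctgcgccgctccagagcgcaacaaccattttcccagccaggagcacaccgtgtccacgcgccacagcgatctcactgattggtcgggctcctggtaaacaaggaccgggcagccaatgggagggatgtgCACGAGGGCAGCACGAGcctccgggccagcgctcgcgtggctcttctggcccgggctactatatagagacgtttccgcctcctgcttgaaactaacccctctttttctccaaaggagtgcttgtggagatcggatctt
The *DUSP1* window holds the full cAMP response element TGACGTCA, the palindrome bound by CREB and by ATF and *JUN* dimers, 125 bases before the start, followed by an E-box (CACGTG) at 108 and a TATA box (TATAAA) at 30 bases before it. *JUN* and *ATF3* hold the related TGACATCA at 67 and 123 bases before their starts, a motif added after the sequences were seen. *TXNIP* holds 2 E-box half-sites spaced by 5 bases (searched as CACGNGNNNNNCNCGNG, also added later), the arrangement that MondoA and *MLX* dimers are known to bind. No match to the AP-1 site TGACTCA or to the serum response element (CArG box) lay in these 4 windows, and the second *ATF3* and *TXNIP* windows held only a TATA match (*ATF3*, 230 bases before the start) and none. Both strands were searched. Of all 35116 promoter windows of this length, 1.85% held TGACGTCA, 2.61% TGACATCA, 4.95% TGACTCA, 7.26% CACGTG, 11.5% TATAAA and 0.501% the paired half-sites. Among genes with a window, TGACGTCA was in 14 of 169 raised genes (8.28%), 2 of 181 lowered genes (1.10%) and 4.18% of 8334 genes tested. TATAAA was in 23 raised (13.6%), 4 lowered (2.21%) and 7.39% of tested genes, and TGACATCA in 10 (5.92%), 3 (1.66%) and 2.02%. Those 10 count *JUN* and *ATF3*, after whose sequences TGACATCA was added, so its raised share is partly set by that choice. Of the other motifs searched here, TGACTCA was in 4.73% of raised, 5.52% of lowered and 4.13% of tested genes. CACGTG was in 16.6%, 18.2% and 13.3%, and the CArG box in 2.37%, 1.10% and 1.51%. The paired half-sites, with *TXNIP* counted, were in 2.96%, 2.76% and 1.10%. A match is a description of the letters and not a site shown to be bound.

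Several transcription factors of development and feedback inhibitors rose. Of 18 tested genes of the ID, SMAD and NOTCH feedback list, 8 were raised (beside 2.05% of all genes) and 0 lowered, with a median of 0.50 (0.50, 0.18 and 0.55 in the 3 emetine libraries), and 6 to 8 passed whichever library was left out. The count fell to 1 with reads times the fraction new, to 1 scaled to all reads and to 1 scaled to spike-in reads. *HES1*, the repressor induced by NOTCH, had 399, 341 and 373 labeled CPM untreated and 1129, 991 and 955 with emetine, a tight and separate pair of groups (log2 change 1.47, standard error 0.133, adjusted p = 1.20e-07). *ID1*, *ID2*, *ID3* and *ID4* encode inhibitors of basic helix-loop-helix factors downstream of BMP signaling, and all 4 rose. *ID2* went from 793, 815 and 876 to 1386, 1335 and 1412 labeled CPM, and *ID1* from 294, 294 and 256 to 534, 548 and 462 (0.73 and 0.87 on the log2 scale, adjusted p = 0.00178 and 0.000230). *ID3* changed by 0.76 and *ID4* by 0.77. *HEY1*, another NOTCH target, changed by 0.71, *SMAD7*, which inhibits TGF-beta receptors, by 0.71, and *SKIL*, a SMAD corepressor, by 0.69. *BAMBI* (0.42), *HES6* (−0.59), *SMAD6* (0.27) and *AXIN2* (0.09) did not pass.

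*SOX4*, a progenitor transcription factor, had 548, 542 and 624 labeled CPM untreated and 1741, 1659.5 and 2597 with emetine, with emetine replicate 3 the highest (log2 change 1.81, standard error 0.162, adjusted p = 1.15e-07). In the HOX, FOX and SOX list of 60 tested genes, *HOXA5* (0.65) and *FOXC1* (0.51) were also raised and *SOX12* was lowered (−0.43), which left 56 without a call, 1 raised gene without untreated replicate 2, and a median of 0.04. Besides *KLF10* and *KLF6*, *KLF11* (0.79) and *KLF9* (0.80) rose, 4 of 11 tested KLF genes (2 with the fraction new, 2 scaled to all reads, 0 scaled to spike-in reads), while *KLF4* (−0.02), *KLF3* (−0.30) and *KLF16* (−0.44) did not pass. When 1 library was left out, the calls of *KLF11* and *KLF9* were lost, with an adjusted p of up to 0.0575 and 0.0576. *MYC*, a proliferation factor with a very short-lived mRNA, went from 1527, 1333 and 1255 to 2226, 2026 and 2786 labeled CPM (log2 change 0.77, standard error 0.148, adjusted p = 0.00357, up to 0.0660 when 1 library was left out). *RHOB*, an early-induced small GTPase outside the lists, rose from 559, 506 and 491 to 1269, 1209 and 1577 (log2 change 1.38, standard error 0.139, adjusted p = 7.94e-07). *SNAI2*, a repressor of epithelial genes that was chosen after its values were seen, changed by 1.19 (adjusted p = 5.16e-06). *PMAIP1*, a proapoptotic BCL2 family member and p53 target, rose from 181, 167 and 197 to 356, 325 and 474 (log2 change 1.08, standard error 0.144, adjusted p = 5.85e-05), whereas the other 12 tested BCL2 family genes did not pass. Of the 20 tested p53 targets, *PMAIP1* alone rose, *CDKN1A* and *MDM2* were at −0.13 and 0.26, and *TNFRSF10D*, a decoy death receptor, fell (−0.96, adjusted p = 0.00560, and 0.0535 without untreated replicate 2).

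Labeled RNA of several histone genes rose. Transcripts of replication-dependent histone genes normally end in a stem-loop without a poly(A) tail, and of 51 listed genes only 3 had 100 or more reads in each library of this poly(A)-selected assay. *HIST1H1C* (chromosome 6, 26055740 to 26056470, minus strand), which encodes a linker histone, went from 40.4, 20.7 and 24.8 to 216, 181 and 149 labeled CPM (log2 change 2.71, standard error 0.205, adjusted p = 4.07e-09). *HIST1H2BK* rose from 48.4, 50.4 and 75.4 to 225, 196 and 183 (log2 change 1.80, standard error 0.166, adjusted p = 1.51e-07), and *HIST3H2A* from 15.9, 16.4 and 4.65 to 43.4, 21.6 and 28.8 (log2 change 1.30, standard error 0.343, adjusted p = 0.0321). The unlabeled reads of these 3 genes differed by −0.18, −0.39 and 0.10, none past the test. The mean fraction of new *HIST1H1C* RNA was 16.8% untreated and 58.0% with emetine. Histone genes are close copies of each other, so reads of near-identical members could have been shared between them. *H1F0*, a linker histone variant with a poly(A) tail, rose from 252, 219 and 169 to 695, 531 and 534 (log2 change 1.46, standard error 0.151, adjusted p = 1.18e-06), with unlabeled reads at −0.09. *H1FX* rose less (0.64, adjusted p = 0.0217), *CENPA*, the centromeric histone, fell (−0.83, adjusted p = 0.0133), and 8 further variants such as *H2AFZ* (−0.18) and *H3F3B* (0.02) did not pass. The calls of *HIST3H2A*, *H1FX* and *CENPA* were lost when 1 library was left out (adjusted p up to 0.155, 0.180 and 0.111).

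Several genes of mitosis fell. *UBE2C*, the ubiquitin-conjugating enzyme of the anaphase-promoting complex (chromosome 20, 45812576 to 45816957, plus strand), had 369, 368 and 376 labeled CPM untreated and 160.1, 180.1 and 131 with emetine, so that the groups were well apart (log2 change −1.23, standard error 0.133, adjusted p = 2.42e-06). *CDCA3*, a trigger of mitotic entry, fell from 87.1, 123 and 102 to 37.3, 42.8 and 32.3 (log2 change −1.47, standard error 0.181, adjusted p = 2.10e-05), and *PSRC1*, a spindle protein, from 101, 121 and 146 to 52.5, 55.7 and 44.9 (log2 change −1.26, standard error 0.169, adjusted p = 7.09e-05). In the list of mitotic kinases and kinetochore genes, 7 of 25 tested members were lowered (28.0%, beside 2.28% of all genes) and 1 was raised, with 4 to 7 lowered whichever library was left out (median −0.15, or 0.29 scaled to spike-in reads). With the fraction new 5 were lowered, scaled to all reads 7 and scaled to spike-in reads 0. *PLK1*, the polo-like kinase of mitotic entry, went from 379, 418 and 404 to 223, 204 and 188 labeled CPM (log2 change −0.97, standard error 0.126, adjusted p = 4.36e-05). *CDC20*, an activator of the anaphase-promoting complex, went from 349, 427 and 372 to 184, 230.2 and 165 (log2 change −0.98, standard error 0.139, adjusted p = 0.000148). *AURKA* and *AURKB*, the Aurora kinases, changed by −0.90 and −0.65, *BIRC5* and *CDCA8*, which sit with *AURKB* in the chromosomal passenger complex, by −0.74 and −0.61, and the kinesin *KIF20A* by −0.63. The kinesin *KIF11* was the raised member (0.53, a call lost when 1 library was left out, adjusted p up to 0.143), and *CDK1* (−0.15), *MAD2L1* (−0.15) and *BUB3* (−0.26) did not pass. *CCNB1*, the mitotic cyclin, was the only 1 of 17 tested cyclins to be called, falling from 404, 425 and 462 to 252, 262 and 259 (log2 change −0.74, standard error 0.123, adjusted p = 0.000958), while *CCNA2* and *CCNB2* were at 0.23 and −0.27. *UBE2S*, the second ubiquitin-conjugating enzyme of the same complex, fell (−0.91, adjusted p = 0.000323), as did *TUBA1C*, an alpha-tubulin (−0.88, adjusted p = 0.000296). Unlabeled reads of *UBE2C*, *PLK1* and *CDC20* differed by −0.17, −0.19 and −0.15, none past the test.

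Many mitotic genes carry a CHR element (searched as TTTGAA on both strands) and CCAAT boxes near their start. The windows of *PLK1* (chr16:23678639-23678938, plus strand) and *CDC20* (chr1:43358731-43359030, plus strand), chosen after their values were seen, are shown with these matches in capitals.
PLK1: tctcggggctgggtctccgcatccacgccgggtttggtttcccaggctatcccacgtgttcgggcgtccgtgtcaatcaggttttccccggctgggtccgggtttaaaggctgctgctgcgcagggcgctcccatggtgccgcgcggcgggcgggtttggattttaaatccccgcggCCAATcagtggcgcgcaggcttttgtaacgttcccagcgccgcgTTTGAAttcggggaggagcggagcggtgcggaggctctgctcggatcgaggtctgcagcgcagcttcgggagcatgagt
CDC20: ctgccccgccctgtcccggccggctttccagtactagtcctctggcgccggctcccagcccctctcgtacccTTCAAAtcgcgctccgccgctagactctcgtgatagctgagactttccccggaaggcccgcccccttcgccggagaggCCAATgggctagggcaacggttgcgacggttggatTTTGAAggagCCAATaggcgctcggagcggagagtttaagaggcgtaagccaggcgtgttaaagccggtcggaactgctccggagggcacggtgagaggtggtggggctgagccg
*PLK1* held CHR letters 29 bases and a CCAAT box 73 bases before the start. *CDC20* held CHR letters at 178 and 65 bases and CCAAT boxes at 100 and 55 bases before it. *CDCA3* held both motifs, and *CCNB1* held 2 CCAAT boxes without the CHR letters. These letters are common: TTTGAA was in 15.2% and CCAAT in 34.6% of all windows, and among the lowered genes they were in 25 (13.8%) and 87 (48.1%) of 181, beside 13.1% and 44.3% of tested genes.

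A few genes of DNA replication rose, by small amounts. Of 32 tested members, 5 were raised (beside 2.05% of all genes) and 0 lowered, with a median of 0.20 and 27 changes above 0. *PCNA*, the sliding clamp of DNA polymerases, went from 375, 288 and 309 to 519, 508 and 439.5 labeled CPM (log2 change 0.60, standard error 0.133, adjusted p = 0.0114). *CDC6*, which loads the replicative helicase, changed by 0.62, *MCM6*, a subunit of that helicase, by 0.48, *RRM1*, of ribonucleotide reductase, by 0.53, and *RFC2*, of the clamp loader, by 0.51. No member passed when untreated replicate 2 or 3, or emetine replicate 1, was left out, and 8 did without emetine replicate 3. No member was raised with reads times the fraction new, scaled to all reads or scaled to spike-in reads, and the median of this list scaled to all reads was −0.01.

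Several cytosolic heat shock genes fell. *HSPA8*, the constitutive HSP70 chaperone (chromosome 11, 123057489 to 123063230, minus strand), had 3664, 3786 and 3276 labeled CPM untreated and 2003, 2055 and 2017 with emetine (log2 change −0.82, standard error 0.138, adjusted p = 0.00119). It was 1 of 2 lowered genes whose unlabeled reads also fell (−0.84, adjusted p = 0.00561), the other being *TNFRSF10D*. *DNAJB1*, a cochaperone of HSP70 and a classical heat shock gene, went from 437, 559.5 and 537 to 266, 325 and 283 (log2 change −0.81, standard error 0.134, adjusted p = 0.000956), with unlabeled reads at 0.02. *HSP90AA1* went from 765, 940.3 and 879 to 499, 531 and 541 (log2 change −0.72, standard error 0.130, adjusted p = 0.00219), *FKBP4*, a cochaperone of HSP90, from 352, 388 and 419 to 221, 254 and 222 (log2 change −0.73, standard error 0.127, adjusted p = 0.00169). *AHSA1* (−0.58), *DNAJA1* (−0.52), *BAG3* (−0.53) and *HSPE1* (−0.62) made up the 8 lowered genes of 20 tested (beside 2.28% of all genes). *HSPD1* (−0.43), *HSP90AB1* (−0.31), *HSPH1* (−0.23) and the regulator *HSF1* (0.35) did not pass. The median was −0.37 (−0.42, −0.33 and −0.42 in the 3 emetine libraries), and −0.41 after removal of each library's trend on length and GC. Scaled to spike-in reads it was 0.03. The lowered members numbered 3 without untreated replicate 2, 4 to 8 without any other library, 4 with the fraction new, 7 scaled to all reads and 0 scaled to spike-in reads. Chaperones of the endoplasmic reticulum gave 1 lowered gene of 21, *SDF2L1* (−0.86).

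Heat shock factor binds inverted repeats with the core GAANNTTC. The windows of *HSPA8* (chr11:123062087-123062386, minus strand) and *HSP90AA1* (chr14:102086995-102087294, minus strand), chosen after their values were seen, are shown with the core in capitals.
HSPA8: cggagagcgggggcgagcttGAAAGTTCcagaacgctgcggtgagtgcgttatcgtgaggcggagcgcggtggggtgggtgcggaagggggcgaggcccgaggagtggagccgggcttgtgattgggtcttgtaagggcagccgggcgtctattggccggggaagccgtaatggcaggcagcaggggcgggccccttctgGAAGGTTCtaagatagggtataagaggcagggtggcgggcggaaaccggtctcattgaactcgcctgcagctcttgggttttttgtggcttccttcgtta
HSP90AA1: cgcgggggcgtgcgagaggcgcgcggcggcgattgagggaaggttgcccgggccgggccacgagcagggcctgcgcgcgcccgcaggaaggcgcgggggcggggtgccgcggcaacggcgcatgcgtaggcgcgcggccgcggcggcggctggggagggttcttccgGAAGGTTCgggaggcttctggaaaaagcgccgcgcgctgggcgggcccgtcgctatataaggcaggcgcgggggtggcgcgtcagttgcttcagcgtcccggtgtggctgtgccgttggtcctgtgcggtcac
*HSPA8* held the core at 230 and 50 bases before the start and *HSP90AA1* at 83 bases before it. *DNAJB1* held cores 77 and 47 bases before 1 of its 3 listed starts and another 1 base after a further start, and the second listed start of *HSP90AA1* held none. The core was in 6.77% of all windows, in 10 of 181 lowered genes (5.52%), in 8 of 169 raised genes (4.73%) and in 6.14% of tested genes.

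The calls of each list were read against the shares of all genes called. The 49 lists held 1689 of the tested genes, 72 of the 221 raised and 63 of the 245 lowered ones.

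**Figure D3:**
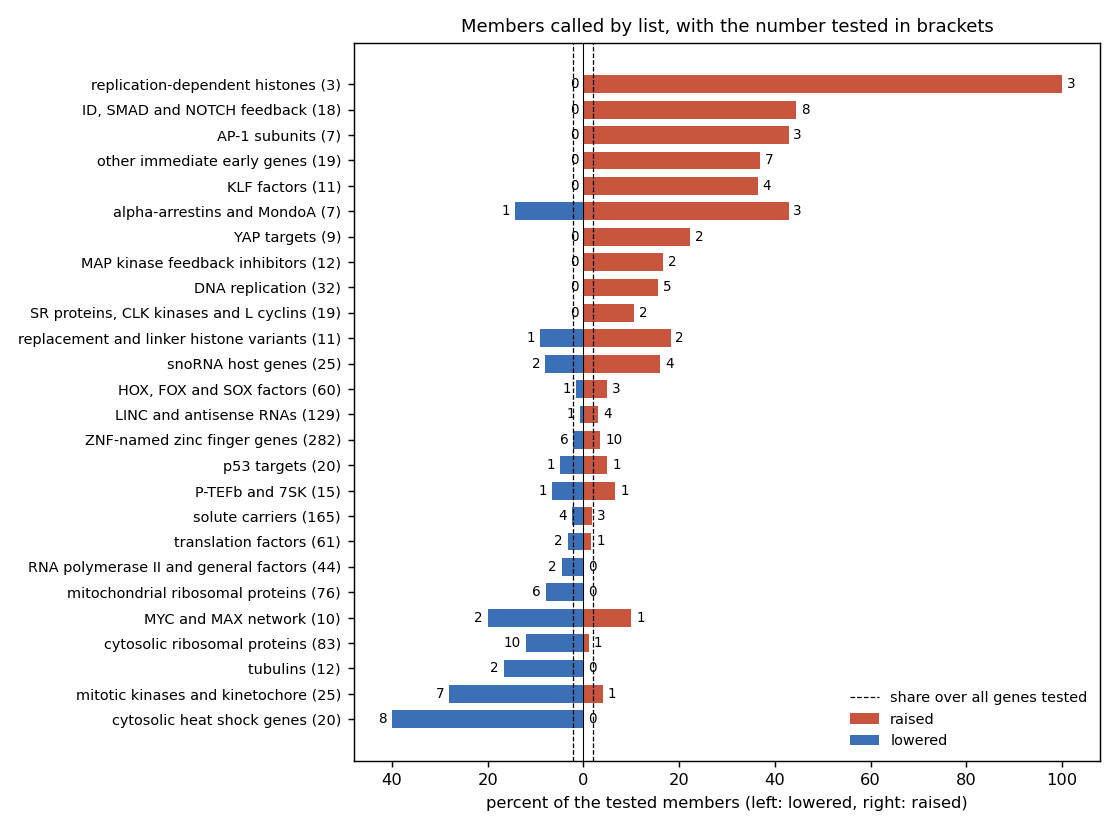
Percent of the tested members of each gene list whose labeled reads were raised (red, right) or lowered (blue, left) at an adjusted p under 0.05, with counts at the bar ends and dashed lines at 2.05% and 2.28%, the shares over all 10763 genes. Lists with at least 2 called members are shown: immediate early, KLF, ID and histone lists reach to the right, heat shock (8 of 20) and mitotic lists (7 of 25) to the left.

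Of 83 tested cytosolic ribosomal protein genes, 10 were lowered (beside 2.28% of all genes) and 1 was raised, and 77 had a log2 change below 0 (median −0.35). *RPL28* went from 515, 507 and 459 to 384, 332 and 246 labeled CPM (log2 change −0.62, standard error 0.144, adjusted p = 0.0161), *RPL23* changed by −0.52 and *FAU* by −0.60. The raised member was *RPL22L1*, a paralog of *RPL22* (0.90, adjusted p = 0.00240, up to 0.0562 when 1 library was left out), and *RPL35* was at −0.30 (adjusted p = 0.284). The median was −0.25 in emetine replicate 1, −0.14 in replicate 2 and −0.72 in replicate 3, and none of the 10 calls held in every fit that left out 1 library (0 lowered without any 1 of the untreated libraries, 27 without emetine replicate 2). With the length and GC trend removed, 6 were lowered and the median was −0.22, and scaled to spike-in reads it was 0.06. Mitochondrial ribosomal proteins (6 of 76 lowered, 7.89%, median −0.23), of which *MRPL34* (−0.88, adjusted p = 0.00219) held in every such fit, and oxidative phosphorylation genes (1 of 78 lowered, *NDUFB10*, 1.28% and so below the share of all genes, median −0.24) had medians on the same side. *GAPDH* was at −0.49 (adjusted p = 0.0666), which did not pass, and *ALDOA*, an enzyme of glycolysis, fell (−0.62, adjusted p = 0.00903, up to 0.132 when 1 library was left out).

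Over all genes, the labeled change varied with transcript length. The median was −0.28 for 620 genes with transcripts under 1000 bases, of which 7.74% were lowered and 1.13% raised, and 0.15 for 972 genes with 8000 bases or more, of which 0.412% were lowered and 2.37% raised. In the shortest class it was −0.19, −0.11 and −0.57 in emetine replicates 1, 2 and 3. The Spearman correlation of change and length was 0.169, 0.089 and 0.491 in these libraries. It was taken across 10415 genes of known length with a mean of 10 or more labeled reads, which share libraries and depth. Raised genes had a median transcript length of 3997 bases and a GC content of 42.7%, lowered genes 1927 bases and 56.9%, and all genes 3386 bases and 48.3%. With the trend removed, 235 genes were raised and 209 lowered, of which 160 and 152 were among the main calls. Without emetine replicate 3, 295 were raised and 307 lowered, with 182 and 214 in common.

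**Figure D4:**
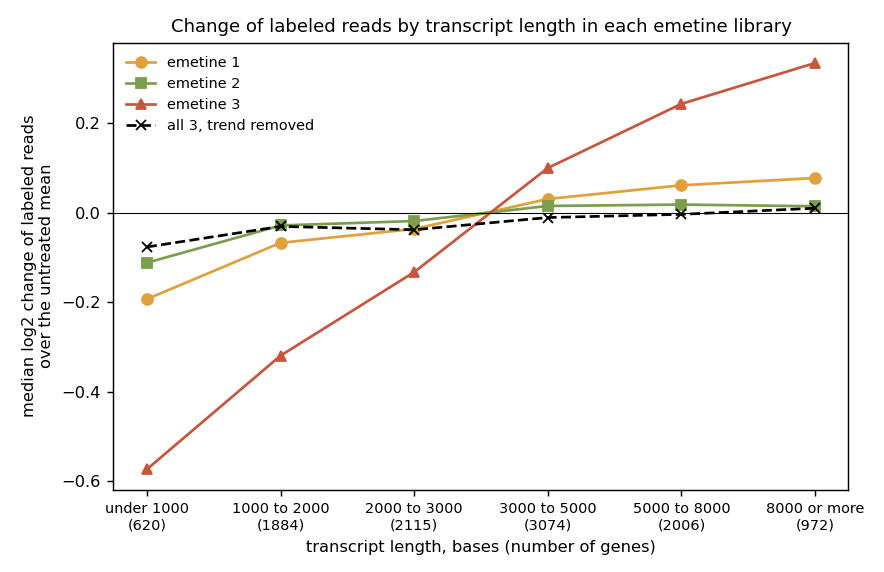
Median log2 change of labeled reads over the untreated mean in classes of transcript length (number of genes in brackets), for each emetine library and for all 3 after removal of that trend (dashed). Emetine replicate 3 runs from −0.57 in the shortest class to 0.33 in the longest, replicates 1 and 2 run from −0.19 and −0.11 to 0.08 and 0.01, and the dashed line stays between −0.08 and 0.01.

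In several stress and decay pathways 0 or 1 member was called, which in lists of this size is near the 4.33% of all genes called. None of 22 integrated stress response genes passed edgeR's test (2 raised and 6 lowered at an unadjusted p under 0.05, 0 and 1 by DESeq2, 2 and 2 by limma-voom): *ATF4*, its central factor, had 2815, 2412 and 2119 labeled CPM untreated and 2742, 2894 and 2123 with emetine, overlapping groups (0.08), and *CHAC1* (−0.96), *ASNS* (−0.44) and *DDIT3* (0.31) did not pass. *ATF3*, which rose (2.39), was counted with the AP-1 subunits and not in this list. None of 7 NF-kappaB genes passed, with *NFKBIA*, the early-induced inhibitor, at −0.19, and 0 had an unadjusted p under 0.05 or a call by DESeq2 or limma-voom. No call was made among 14 nonsense-mediated decay, 16 CCR4-NOT and deadenylase, 30 Mediator and 33 aminoacyl-tRNA synthetase genes, where 3, 2, 5 and 6 had an unadjusted p under 0.05, DESeq2 called 0 in each, limma-voom called 0, 1, 1 and 3, and the medians were 0.10, 0.03, −0.06 and −0.01. Among 19 ribosome collision factors, *PELO*, a rescue factor of stalled ribosomes, was lowered (−0.44, adjusted p = 0.0442, up to 0.225 when 1 library was left out), and *ZNF598*, the ligase that recognizes collided ribosomes, was at −0.07. In simulated counts of this depth the test recovered 62.5% of log2 changes of 0.75 and 98.0% of 1.5, so small changes in these lists were not reliably detectable. Genes with few labeled reads were left out when the changed genes were drawn, so recovery among them was not measured.

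Labeled and unlabeled reads of a gene need not move together. Reads without a conversion were raised for 798 genes (7.41%) and lowered for 9 (0.0836%), and they hold RNA made before the hour together with new fragments in which no T was converted. Of the 221 genes with raised labeled reads, 69 (31.2%, and 8.65% of the 798) also had raised unlabeled reads and 0 had lowered ones. Both rose for *JUN*, *DUSP1*, *HES1* (1.54), *KLF6* (2.65), *KLF10* (2.06) and *THAP9-AS1* (1.60). Unlabeled reads of *JUND*, *H1F0*, *PCNA* (−0.19), *DUSP8* (0.28) and *ID2* (0.28) did not pass. Of the 245 genes with lowered labeled reads, 17 (6.94%, and 2.13% of the 798) had raised unlabeled reads. *ZNF691* was the clearest: labeled reads went from 128, 138 and 122 to 71.1, 85.9 and 66.2 CPM (log2 change −0.79, standard error 0.152, adjusted p = 0.00370), while unlabeled reads rose by 1.42. *ZNF668* (−0.60 labeled, 1.03 unlabeled), *ZNF581* (−0.55 and 1.26), *PELO* (−0.44 and 0.81) and *MEPCE*, the 7SK RNA capping enzyme (−0.53 and 0.40), went the same 2 ways. None of these 5 labeled calls held in every fit that left out 1 library (adjusted p up to 0.0597 for *ZNF691* and 0.159 for *ZNF668*).

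The zinc finger genes with a ZNF symbol, many of them repressors of transcription, were called far more often in unlabeled than in labeled reads. Of 282 tested, 10 were raised and 6 lowered in labeled reads (3.55% and 2.13%, beside 2.05% and 2.28% of all genes), with a median of 0.02, whereas 143 were raised in unlabeled reads (beside 7.41% of all genes) with a median of 0.69. *ZNF57* had 88.3, 64.1 and 57.3 labeled CPM untreated and 103, 94.9 and 87.6 with emetine (0.45, adjusted p = 0.133) and unlabeled reads at 2.89. *ZNF416* was at 0.40 labeled (adjusted p = 0.201) and 3.08 unlabeled. *ZNF121* rose in both (1.22 and 1.50) and was the 1 raised ZNF gene that held in every fit leaving out 1 library. For ZBTB factors the medians were 0.03 labeled and 0.65 unlabeled, with *ZBTB10* raised (0.86). The same held for *DDIT4*, an inhibitor of mTOR signaling (0.23 labeled, 2.18 unlabeled), *BRF2*, of RNA polymerase III (0.26 and 1.94), and *MED26* (0.11 and 1.81). In total, 712 genes had raised unlabeled reads and no call in labeled reads, a pair of tests whose difference was not tested itself.

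**Figure D5:**
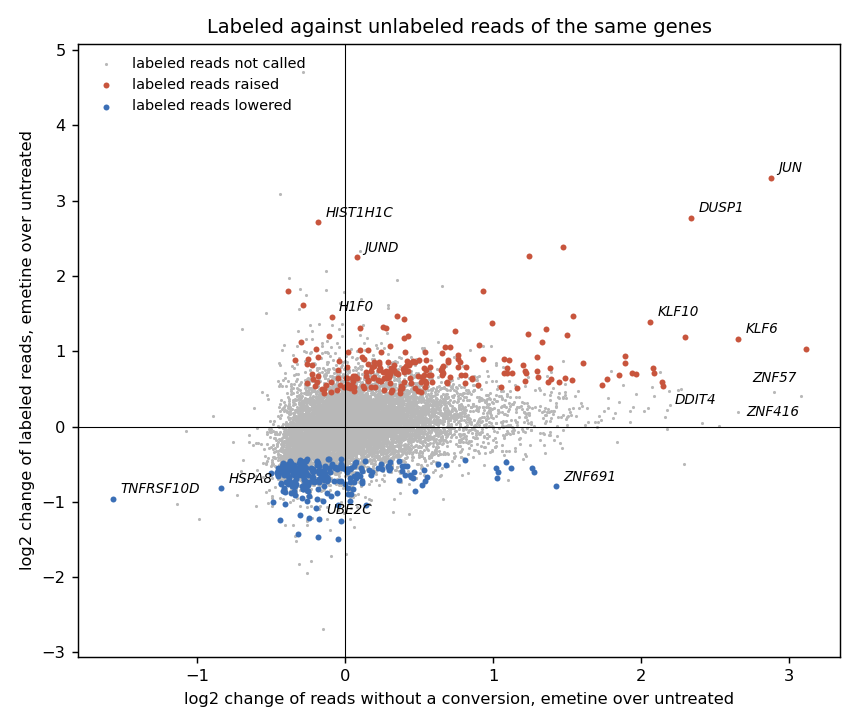
Log2 change of labeled reads against that of reads without a conversion, 1 point per gene, colored by the labeled call. JUN and DUSP1 lie high on both axes, JUND, H1F0 and HIST1H1C rise near 0 on the horizontal axis, ZNF57, ZNF416 and DDIT4 lie far right near 0 on the vertical axis, and ZNF691 lies right and below 0.

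Noncoding RNAs were called in both directions. Of 192 tested lncRNA genes, 10 were raised and 4 lowered (5.21% and 2.08%, beside 2.05% and 2.28% of all genes). *THAP9-AS1*, antisense to THAP9, rose from 195, 169 and 161 to 303, 336 and 298 labeled CPM (log2 change 0.84, standard error 0.128, adjusted p = 0.000323), and *NEAT1*, the scaffold of paraspeckles, from 391, 244 and 276 to 614, 449.8 and 536 (log2 change 0.82, standard error 0.158, adjusted p = 0.00387, up to 0.0868 when 1 library was left out). The calls of *THAP9-AS1* and *NEAT1* were lost with the fraction new (limma, adjusted p = 0.102 and 0.112) and scaled to all reads (edgeR, adjusted p = 0.0868 and 0.0791). Hosts of small nucleolar RNAs split: *TAF1D* (0.88), *EPB41L4A-AS1* (0.81), *SNHG17* (0.56) and *SNHG15* (0.59) rose, and *SNHG7* (−0.72) and *DANCR* (−0.73) fell, 6 of 25 tested, none of which held in every fit that left out 1 library. With the fraction new, 0 hosts were raised and 2 lowered. Scaled to all reads, these counts were also 0 and 2, and scaled to spike-in reads 0 and 0. The library kit marks strand, but the counting setting is not given in the sources used here, so reads of antisense genes could include those of their partner.

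Raised genes were more frequent among genes with a high fraction of new RNA. Of 283 genes whose RNA was at least 60% new in untreated cells, 13.8% were raised and 2.83% lowered, while of 1669 genes under 5% new, 10 were raised and 50 lowered. The share raised went through 1.13%, 1.59%, 2.93% and 4.17% in the classes between. The median fraction new in untreated cells was 22.6% for raised, 12.9% for lowered and 12.2% for all genes. The fraction was estimated from the same untreated libraries, and genes with more labeled reads have more precise changes, so that these shares are a description. Conversions per T in labeled reads, relative to each library's rate, had medians of 0.988 to 1.01 in raised genes and 1.03 to 1.05 in lowered genes in all 6 libraries.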

How the data were processed

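Labeled and unlabeled RNA was measured by TimeLapse sequencing in 8 libraries of HEK-293T cells at 1 h: 3 untreated and 3 emetine libraries with s4U, and 1 of each without it. The authors trimmed and aligned reads (cutadapt, HISAT and SAMtools on hg38, per the labels) and deposited counts of reads for each library, gene, number of T positions and number of T-to-C conversions. The gene annotation and the strand setting of the counting are not given in the sources used here. Replicates were not pooled, and the libraries carry no molecular identifiers.

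Reads with 2 or more conversions were summed per gene as labeled counts and reads with none as unlabeled counts, leaving out reads given to no single gene (26.4% to 30.1% of which were labeled in the libraries with s4U). Genes with 100 or more reads in each of 6 libraries were kept. Emetine and untreated libraries were compared with edgeR 4.0.16 (R 4.3.3, TMM on the tested counts, quasi-likelihood test, Benjamini-Hochberg adjustment over all 10763 genes), without covariates, and standard errors are the change divided by the root of the F statistic. The biological coefficient of variation of labeled counts was 13.8%, and 738 genes had under 10 labeled reads in some library. Labeled totals of 1799508 to 3047000 reads set the precision. The fraction new was estimated with a binomial mixture of 2 conversion rates. In simulated counts, 62.5% of 200 genes changed by 0.75 log2 units were recovered with 9.42% of calls false, and 98.0% of genes changed by 1.5 with 7.11% false. The changed genes were drawn without those that had few labeled reads, so recovery among the latter was not measured.

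Gene positions came from GENCODE 44, with 10100 genes matched by symbol, 571 by an older symbol and 92 unmatched, and promoters from RefSeq (GRCh38.p14), which gave a window for 8334 genes. Genes were named by rule: the 12 smallest p-values and the 8 largest called changes in each direction, genes the study names in its text, and up to 4 called members per list and direction, or the 2 with the most labeled reads where a list had none. Some genes picked by this rule, such as *MAT2A* and *NETO2*, are not described here. Further list members, those called and examples that did not pass, were named after their values were seen. The members and lists were chosen with earlier results of these data known. The list of mitochondrially encoded genes had no member in the table under its symbols.

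Alternatives were other conversion minimums, gene CPM times fraction new on a log2 scale with limma 3.58.1 (0.5 CPM added), scaling to all or to spike-in reads, DESeq2 1.42.0, limma-voom with quality weights, other filters, a replicate block, a trend on length and GC content removed with mgcv 1.9.3, and leaving out each library. Counting and figures used Python 3.11.15, numpy 2.4.6, pandas 2.3.3, scipy 1.17.1, numba 0.67.0 and matplotlib 3.10.9. The bakR package used by the authors was not run. The 2 h files were not used here, since they hold the authors' own fold changes and p-values and size factors of other libraries.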

Additional observations from a re-analysis of the deposited data

Results flagged for a closer look

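Reads given to no single gene, which no comparison used, also carried the label. The labeled share of these reads was 26.8%, 30.1% and 29.9% in the untreated libraries and 26.4%, 28.1% and 29.3% in the emetine libraries. The lowest of the 6, 26.4%, lay above the 0.0819% and 0.0889% in the libraries without s4U. The groups overlapped.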

How the results depend on the processing

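None of the 115 named genes that were called was called in the opposite direction under any alternative. The count of raised genes (221) was 28 with counts times fraction new and limma, 27 scaled to all gene reads, 11 scaled to spike-in reads, 467 with limma-voom, and 41 to 318 with 1 library left out. The count of lowered genes (245) was 84 for 1 or more conversions, 65 with fraction new, 0 with spike-in scaling (edgeR, 3 at an unadjusted p under 0.05, and 587 raised), 523 with limma-voom, and 38 to 333 with 1 library left out. The lowest counts came without untreated replicate 2, and those without untreated replicate 1, untreated replicate 3 and emetine replicate 1 were 126, 65 and 128 raised and 81, 55 and 102 lowered. Genes raised over 2-fold (28) numbered 16 with fraction new, 17 scaled to all reads, 8 scaled to spike-in reads and 18 with 500 or more reads required (20 to 37 with 1 library left out). Genes lowered over 2-fold (8) numbered 4 for 1 or more conversions, 23 scaled to all reads, 0 scaled to spike-in reads and 5 with 500 or more reads (3 to 13 with 1 library left out). The cause of these shifts was not tested beyond the median log2 change of all genes, which was −0.20 with all reads, 0.42 with spike-in reads and −0.13 with fraction new, beside 0.0025. Of these 115 calls, 11 remained with spike-in scaling, 52 with fraction new, 64 with all reads and 44 without untreated replicate 2. DESeq2 gave 284 raised and 299 lowered genes, and its size factors 233 and 230. With the replicate block, 269 genes were raised and 319 lowered. Deviations of libraries with the same number correlated at 0.106, −0.0223 and 0.0168, which shows no clear pairing by number but cannot exclude it. The labels do not say whether libraries of the same number were handled together. With 3 libraries a group, genes with few labeled reads could show large changes only.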

Other observations

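A few other gene groups held called members, read here against 2.05% raised, 2.28% lowered and 4.33% called in either direction over all genes (edgeR). *BRD2*, a bromodomain protein that recruits the elongation factor P-TEFb, rose (log2 change 0.90, adjusted p = 0.00202) and held in every fit that left out 1 library (adjusted p up to 0.0472), while *MEPCE* in the same list of 15 fell. Tubulin genes had 2 lowered members of 12, *TUBA1C* (−0.88), which held in every such fit, and *TUBB4B* (−0.61, adjusted p up to 0.0962). The splicing factors *SRSF3* (0.53) and *SRSF7* (0.55) rose among 19 SR protein, CLK and L cyclin genes, and both calls were lost without untreated replicate 2. *AMOTL2* (0.72, adjusted p up to 0.144 when 1 library was left out) rose beside *CYR61* among 9 YAP targets.

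In larger lists the share of called genes was near that of all genes. Solute carriers had 3 raised and 4 lowered members of 165 (1.82% and 2.42%), proteasome genes 1 lowered of 44 (2.27%), and translation factors 1 raised and 2 lowered of 61 (1.64% and 3.28%). The calls in these lists that were followed, *SLC25A32* (0.67), *SLC52A2* (−0.77), *PSME1* (−1.43), *EIF4A2* (0.63), *EEF1G* (−0.56) and *EIF2S2* (−0.46), were each lost when 1 library was left out (adjusted p up to 0.130, 0.0993, 0.187, 0.117, 0.188 and 0.189).

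Collagen, integrin, laminin and cadherin genes (34 tested) and NRF2 targets with metallothioneins (12 tested) had 0 calls by edgeR, with 2 and 3 genes at an unadjusted p under 0.05, 0 calls by DESeq2 and 1 and 2 by limma-voom.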
